A study of Mus musculus with 18 samples.

Results

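The androgen-dependent genes of the proximal tubule examined here were Kap, Odc1, Slco1a1, Cyp4a12a, Cyp2e1, Cyp2j13 and Gusb. The 7 genes were taken by symbol from the 32675 genes measured, and all 7 passed the filter on low counts, as did 20251 genes in all. Right kidneys of 18 male wild type C57BL/6 mice, listed at 6 weeks of age, were sequenced as bulk poly(A) RNA, with 6 mice in each of 3 groups. Ctrl mice were left undefeated, while PBS and FLX mice underwent chronic social defeat stress (CSDS) of 10 min per day over 2 weeks in the presence of aggressive mice. PBS mice were injected with phosphate-buffered saline during CSDS and FLX mice with fluoxetine, a selective serotonin reuptake inhibitor, at 10 mg per kg per day. The study describes Ctrl mice as handled each day and names no injection for them. Defeat and repeated injection therefore cannot be told apart in comparisons with Ctrl mice. No group of undefeated mice given fluoxetine, no castrated mice and no female mice were among the samples, and no hormone level was among the values analysed here.

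Testosterone is a steroid hormone that enters tubule cells and changes the transcription of genes there. The proximal tubule of the mouse is a classical target of this hormone, and male kidneys carry transporters, cytochrome P450 enzymes and secreted proteins at levels that differ from those of females. Kap and Odc1 are textbook examples of kidney genes induced by androgen. The genes were selected on their known place in androgen biology and on their FPKM and count values in these 3 groups. Their differences between groups are therefore given as a description, without the p-value of any gene. Counts of the genes that passed a threshold are given below, and nothing is read from them.

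One PBS mouse, PBS replicate 6, stood apart from the other PBS mice. Summed FPKM (fragments mapped, scaled by transcript length and by the size of the library) of 9 neutrophil genes was 66.4 in this mouse, against 7.18 to 26.2 in the other 5 PBS mice, and that of 7 tubule injury genes was 4269 against 635 to 1085. The study deleted a PBS mouse for excessive inflammatory gene expression without numbering it. Values over PBS replicates 1 to 5 therefore come first here, and values with replicate 6 follow. Total estimated counts per mouse were 48928823 to 52073640 in FLX replicates 3 to 6 and 72149987 to 79061296 in the other 14 mice. Defining markers of the labelled tissue were present, since each of 18 proximal tubule genes averaged over 1 FPKM, with summed values of 4848 to 5670 FPKM in the Ctrl group, 5331 to 5978 in the PBS group and 5137 to 5540 in the FLX group. PBS replicate 6 had a sum of 3391 FPKM. In bulk tissue, fewer cells of a type and less RNA per cell cannot be told apart.

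The 7 genes sit on 6 chromosomes of the mouse genome (GRCm38, gene spans as listed with the values). Kap (ENSMUSG00000032758, chr6:133849851-133853762, minus strand) and Slco1a1 (ENSMUSG00000041698, chr6:141907282-141946962, minus strand) lie on the same chromosome. Cyp4a12a (ENSMUSG00000066071, chr4:115299046-115332815, plus strand) and Cyp2j13 (ENSMUSG00000028571, chr4:96027534-96077540, minus strand) share another. Odc1 (ENSMUSG00000011179) is at chr12:17544794-17551084 on the plus strand, Cyp2e1 (ENSMUSG00000025479) at chr7:140763739-140774987 on the plus strand and Gusb (ENSMUSG00000025534) at chr5:129989011-130003049 on the minus strand. Reads can be assigned to these genes with unequal certainty. No 100-base stretch of the Kap, Cyp2j13 or Gusb transcript (GENCODE M21) occurred in a transcript of another gene, whereas 35.8% of the 100-base stretches of Cyp4a12a occurred in Cyp4a12b, a neighbouring member of its family. For Odc1 the share was 19.6%, spread over 8 genes, with the most in Gm17709 (7.92%). Values of Cyp4a12a and Odc1 may thus include reads of these other genes.

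Promoter sequences were read around the start sites of these genes. RefSeq windows (GRCm38.p6, from 250 bases before to 50 bases after the annotated start) matched 6 of the 7 genes, all but Cyp4a12a, and Cyp2j13 had windows at a pair of neighbouring starts. The 30 bases from position -45 to -16, counted back from the base before the start, are printed 5′ to 3′ on the gene's strand because a TATA box, the core promoter element bound by the general transcription machinery, is usually found in this stretch. Capitals mark TATAAA.
Kap: cagagtacaggatgTATAAAagcccaggag
Cyp2e1: tctcaacgacacgtTATAAAatccttgttt
Slco1a1: gtagtcctgggttgtataagaaggtcaagc
Odc1: ccgggacccgggttggccgccacggagtcc
Cyp2j13: ggtggagtggaatagatttagctgagagcc
Gusb: aaggagggggagatattaatagatgtgagg
In genome coordinates these stretches are chr6:133853683-133853712 (Kap), chr7:140763774-140763803 (Cyp2e1), chr6:141946978-141947007 (Slco1a1), chr12:17544828-17544857 (Odc1), chr4:96077556-96077585 (Cyp2j13) and chr5:130003065-130003094 (Gusb). For Kap, Cyp2e1 and Odc1, the RefSeq start lies inside the gene span listed with the values. The letters TATAAA were found in Kap and Cyp2e1, in both beginning at position -31, and in 8.28% of 32544 promoter windows of the same length. The Odc1 window was 78.0% G or C.

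The androgen response element is an inverted repeat of 6-base half-sites with a spacer of 3 bases, written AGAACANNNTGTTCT, and the glucocorticoid receptor is known to bind the same letters. Searched on both strands, the full element was in 3 of the 32544 windows (0.00922%) and in none of the windows of the 6 genes. Half-sites alone (AGAACA or TGTTCT) were in 18.9% of all windows and in none of those of the 6 genes. This says only that these letters are not in these windows. The 250 bases before the Slco1a1 start, at chr6:141946963-141947212 on the minus strand, are shown because Slco1a1 differed most between the groups.
Slco1a1 upstream: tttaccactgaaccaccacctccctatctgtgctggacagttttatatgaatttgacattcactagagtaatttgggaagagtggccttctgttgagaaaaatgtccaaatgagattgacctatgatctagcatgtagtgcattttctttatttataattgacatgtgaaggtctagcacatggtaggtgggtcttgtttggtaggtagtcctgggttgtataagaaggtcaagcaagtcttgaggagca

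The PBS group had the lowest mean FPKM of the 3 groups for each of the 7 genes. Slco1a1 and Cyp4a12a differed most, with PBS means at 14.8% and 21.5% of the Ctrl means, followed by Kap at 60.4%. The PBS means of Cyp2j13, Odc1, Cyp2e1 and Gusb were between 69.0% and 80.7% of the Ctrl means. FLX means were between 64.5% (Slco1a1) and 113% (Cyp2j13) of the Ctrl means.

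**Figure D1:**
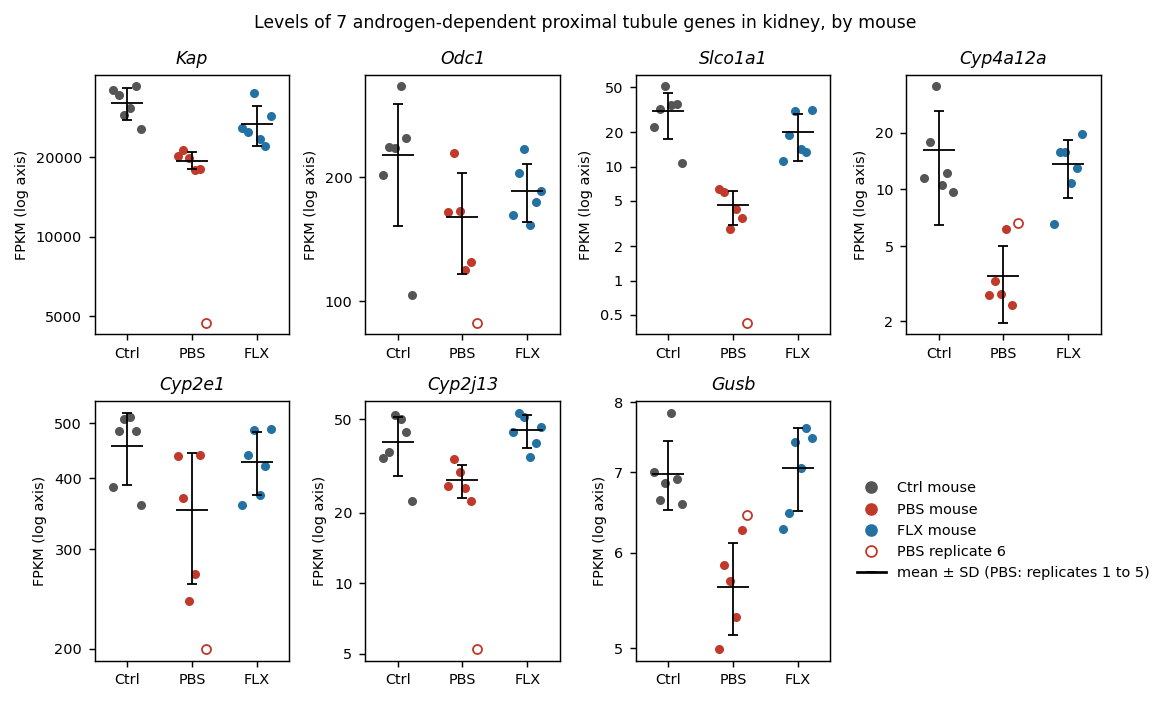
FPKM of each gene in each mouse (log axis, 1 panel per gene), with filled points for mice, an open point for PBS replicate 6, and black bars for mean ± SD over 6 Ctrl, 5 PBS and 6 FLX mice. The 5 filled PBS points lie below every Ctrl point for Kap, Slco1a1, Cyp4a12a and Gusb, and the open point is the lowest of all mice for Kap, Odc1, Slco1a1, Cyp2e1 and Cyp2j13.

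Kap encodes the kidney androgen-regulated protein, a secreted protein of the proximal tubule, and was the most abundant of the 7 transcripts. It accounted for 5.88% to 8.51% of all FPKM in Ctrl mice, 1.18% to 4.91% in the 6 PBS mice and 5.37% to 7.97% in FLX mice. Kap was measured at 25573 to 37061 FPKM in Ctrl mice, with a median of 32558. The PBS mice had 20125, 21183, 19837, 17873 and 17970 FPKM in replicates 1 to 5, and 4720 in replicate 6. FLX mice lay between 22020 and 34874 FPKM, with a median of 25344. All 6 PBS mice were below every Ctrl mouse and below every FLX mouse, and 3 of the 6 FLX mice were below every Ctrl mouse. For Kap, PBS differed from Ctrl by -0.73 ± 0.13 (SE) on the log2 scale, and by -0.92 ± 0.25 with all 6 PBS mice. In FLX versus PBS it was 0.37 ± 0.13, and 0.56 ± 0.25 with all 6. The mean over PBS replicates 1 to 5 was 19398 FPKM ± 1438 (SD, n = 5), against 32107 ± 4447 (SD, n = 6) in the Ctrl group. With replicate 6 the SD of the PBS group was 6129 (n = 6), above that of the Ctrl group.

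Slco1a1 encodes an organic anion transporting polypeptide that carries steroid conjugates, bile acids and drugs into cells. Its level spanned 10.9 to 50.8 FPKM in Ctrl mice (median 33.4). The PBS mice had 6.35, 5.98, 2.82, 4.27 and 3.58 FPKM in replicates 1 to 5 and 0.427 in replicate 6, all below every Ctrl mouse. FLX mice spanned 11.2 to 31.3 FPKM (median 16.6), above every PBS mouse and within the range of the Ctrl mice. On the log2 scale, PBS differed from Ctrl by -2.74 ± 0.37 (SE) and FLX from PBS by 2.03 ± 0.36, and Slco1a1 had the largest differences among the 7 genes. All 6 PBS mice together gave -2.97 ± 0.48 and 2.26 ± 0.47. FLX versus Ctrl gave -0.71 ± 0.32. The other Slco1a genes at over 1 FPKM did not share this size of difference, since Slco1a6 averaged 46.6 FPKM in Ctrl, 39.6 in PBS and 44.5 in FLX mice, where PBS differed from Ctrl by -0.23 ± 0.09 on the log2 scale (edgeR quasi-likelihood adjusted p = 0.158).

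Cyp4a12a is a cytochrome P450 that hydroxylates arachidonic acid to 20-HETE, an eicosanoid acting on renal vessels and tubules, and is the male-predominant enzyme of its family in mouse kidney. Ctrl mice had 9.72 to 35.2 FPKM, with a median of 11.9 and the highest value in replicate 3. PBS replicates 1 to 5 had 2.77, 3.26, 2.80, 6.14 and 2.44 FPKM, and replicate 6 had 6.66. FLX mice had 6.54 to 19.8 FPKM, with a median of 14.3. No PBS mouse reached the lowest Ctrl mouse. All 6 FLX mice were above PBS replicates 1 to 5, but PBS replicate 6 was above FLX replicate 1, so that the groups overlapped when all 6 PBS mice were counted. Log2 fold changes were -2.18 ± 0.36 (SE) in PBS versus Ctrl and 1.86 ± 0.35 in FLX versus PBS, or -1.99 ± 0.35 and 1.67 ± 0.34 with all 6 PBS mice. In FLX versus Ctrl the value was -0.32 ± 0.32, and it went to 0.04 without Ctrl replicate 3. The shared sequence with Cyp4a12b bears on these values. Cyp4a12b averaged 5.93 FPKM in Ctrl, 3.74 in PBS and 6.20 in FLX mice, and its log2 fold change in PBS versus Ctrl was -0.65 ± 0.22 (edgeR quasi-likelihood adjusted p = 0.111).

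Cyp2j13, an epoxygenase of the Cyp2j family that acts on fatty acids, ranged from 22.4 to 52.3 FPKM in Ctrl mice (median 40.2). PBS replicates 1 to 5 had 26.1, 33.9, 29.7, 25.5 and 22.4 FPKM, and replicate 6 had 5.24. The PBS and Ctrl mice overlapped through Ctrl replicate 6, the lowest Ctrl mouse, at 22.4 FPKM. FLX mice ranged from 34.5 to 53.4 FPKM (median 45.2), above all 6 PBS mice. The log2 fold change was -0.53 ± 0.18 (SE) in PBS versus Ctrl, 0.62 ± 0.18 in FLX versus PBS and 0.09 ± 0.17 in FLX versus Ctrl, where it turned to -0.03 without Ctrl replicate 6. With all 6 PBS mice the first and the second of these were -0.74 ± 0.30 and 0.83 ± 0.30. Cyp2j13 was the gene among the 7 whose FLX mean lay above its Ctrl mean by the most, at 44.9 FPKM ± 7.12 (SD, n = 6) against 39.9 ± 11.2 (SD, n = 6).

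Cyp2e1, the P450 that oxidises ethanol, acetone and other small molecules, was the second most abundant transcript of the 7. Ctrl mice had 359 to 513 FPKM, with a median of 484. PBS mice split, with 438, 369 and 439 FPKM in replicates 1, 2 and 5 against 243 and 271 in replicates 3 and 4, and replicate 6 was lower still, at 43.9% of the Ctrl mean. FLX mice had 359 to 488 FPKM, with a median of 431. PBS replicates 1, 2 and 5 were inside the Ctrl range, so the groups overlapped. Its log2 fold change was -0.37 ± 0.15 (SE) in PBS versus Ctrl (-0.48 ± 0.18 with all 6 PBS mice) and 0.19 ± 0.15 in FLX versus PBS (0.31 ± 0.18 with all 6).

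Odc1 encodes ornithine decarboxylase, the rate-limiting enzyme of polyamine synthesis. Ctrl mice ranged from 104 FPKM in replicate 6 to 333 in replicate 4, with a median of 236. PBS replicates 1 to 5 had 165, 229, 165, 119 and 124 FPKM and replicate 6 had 88.8. FLX mice ranged from 153 to 234 FPKM (median 180). Ctrl replicate 6 was below all but 1 of the PBS mice, and the 3 groups overlapped. Log2 fold changes were -0.49 ± 0.23 (SE) in PBS versus Ctrl, 0.12 ± 0.22 in FLX versus PBS and -0.37 ± 0.21 in FLX versus Ctrl, so that the FLX versus PBS value was smaller than its standard error. With all 6 PBS mice the first 2 of these values were -0.61 ± 0.24 and 0.24 ± 0.23.

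Gusb encodes beta-glucuronidase, a lysosomal enzyme whose activity in mouse kidney was an early measure of androgen action. It had the lowest Ctrl level of the 7 genes and the smallest spread. Ctrl mice had 6.59 to 7.84 FPKM (median 6.88). PBS replicates 1 to 5 had 4.99, 5.87, 5.68, 5.31 and 6.27 FPKM, and replicate 6 had 6.45, the highest of the PBS mice. FLX mice had 6.28 to 7.62 FPKM (median 7.24). All 6 PBS mice were below every Ctrl mouse, and PBS replicates 1 to 5 were below every FLX mouse, the nearest being PBS replicate 5 at 6.27 and FLX replicate 1 at 6.28 FPKM. With replicate 6 the PBS and FLX mice overlapped. The log2 fold change was -0.31 ± 0.07 (SE) in PBS versus Ctrl and 0.24 ± 0.07 in FLX versus PBS, or -0.28 ± 0.07 and 0.21 ± 0.07 with all 6 PBS mice. With FLX replicates 1 and 2 only, FLX versus PBS was 0.14, and FLX versus Ctrl was -0.16, against -0.07 with all 6 FLX mice.

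**Figure D2:**
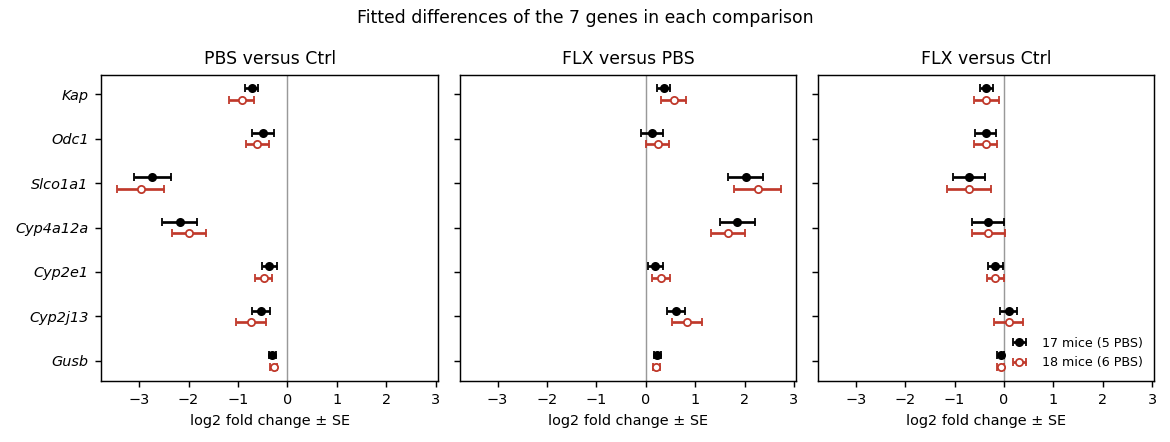
Log2 fold change ± SE of each gene (rows) in the 3 comparisons (panels), fitted with edgeR over 17 mice (black, 5 PBS mice) and 18 mice (open red, 6 PBS mice). In PBS versus Ctrl every point is below 0 and in FLX versus PBS every point is above 0, while FLX versus Ctrl runs from -0.71 (Slco1a1) to 0.09 (Cyp2j13).

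Between the PBS and Ctrl groups, 4 of the 7 genes (Kap, Slco1a1, Cyp4a12a and Gusb) were called lower at an adjusted p under 0.05, where 1.67% of the 20251 genes were called lower. The same 4 genes had PBS replicates 1 to 5 below every Ctrl mouse, an arrangement found for 1.75% of all genes. In FLX versus PBS, 2 of the 7 (Slco1a1 and Cyp4a12a) were called higher, against 0.306% of all genes, and 5 (also Kap, Cyp2j13 and Gusb) had every FLX mouse above PBS replicates 1 to 5, against 2.45%. These calls are from edgeR. DESeq2 called 5 of the 7 lower in PBS versus Ctrl and 3 higher in FLX versus PBS, beside 630 and 251 of the 20251 genes. With limma on log2(FPKM + 0.1) these numbers were 3 and 3, beside 397 and 192. In FLX versus Ctrl, 0 of the 7 were called by edgeR, with 2 at an unadjusted p under 0.05, and limma on log2(FPKM + 0.1) called 0 and DESeq2 1, where edgeR called 3.67% of all genes. Because the genes were chosen with these contrasts known, nothing is read from these counts. The median log2 fold change over the 7 genes was -0.53 in PBS versus Ctrl, 0.37 in FLX versus PBS and -0.32 in FLX versus Ctrl, beside -0.01, -0.00 and -0.01 over all genes tested. With all 6 PBS mice the first of these medians was -0.74 and the second 0.56. PBS versus Ctrl and FLX versus PBS share the PBS mice, so a low value in these mice gives opposite signs in the 2 comparisons by construction. Over 28 alternative fits drawn from the same mice, no gene of the 7 changed sign in either of these comparisons. The lowest FLX versus PBS values of Odc1 and Cyp2e1 in these fits were 0.03 and 0.08.

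Mouse-to-mouse differences inside the groups were not used to choose the genes. Ctrl replicate 6 was the lowest Ctrl mouse for all 7 genes, and FLX replicate 1 was below the FLX mean for all 7. FLX replicates 3 and 6 were above the FLX mean for all 7 genes. On the scale of log2(FPKM + 0.1), Ctrl replicate 6 was below its group mean by between 0.08 (Gusb) and 1.36 (Slco1a1). PBS replicate 6 was the lowest of the 6 PBS mice for 5 of the genes, and the highest for Cyp4a12a and Gusb. FLX replicates 3 and 6 are among the 4 libraries with the lower totals.

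**Figure D3:**
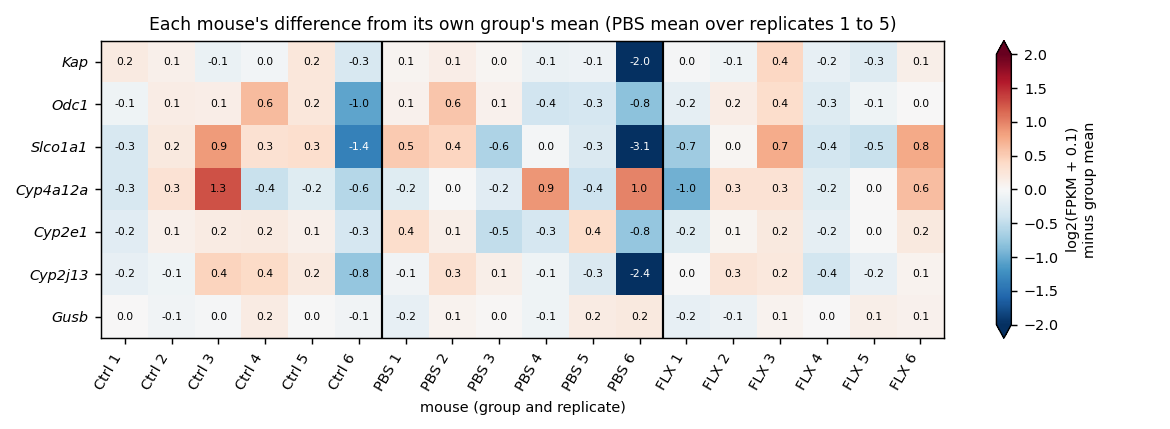
Difference of each mouse (columns) from the mean of its own group for each gene (rows), in log2(FPKM + 0.1), with the PBS mean taken over replicates 1 to 5 and colours ending at -2 and 2. The column of Ctrl replicate 6 is negative for all 7 genes, and that of PBS replicate 6 is negative for 5 and positive for Cyp4a12a and Gusb.

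After group means were removed, all 21 pairs of genes had a positive Pearson's r over the 17 mice, from 0.02 (Cyp4a12a and Gusb) to 0.89 (Odc1 and Cyp2j13), with a median of 0.38. Of these pairs, 5 passed a two-sided permutation test within groups (100000 resamples, Benjamini-Hochberg adjusted over the 21 pairs). Pairs of other genes were not examined, so these correlations are not read as particular to the 7 genes. Odc1 and Cyp2j13 had r = 0.89 and Spearman's rho = 0.85 (permutation adjusted p = 0.0013 and 0.0017), and r was 0.76 without the 2 mice farthest from the median of Odc1. For Slco1a1 and Cyp2e1, r was 0.72 and rho 0.75 (permutation adjusted p = 0.0070 and 0.0096), with r = 0.68 without the 2 farthest mice. Slco1a1 and Cyp2j13 had r = 0.74 (permutation adjusted p = 0.0232), which was 0.50 without the 2 farthest mice. Odc1 and Slco1a1 had r = 0.73 (permutation adjusted p = 0.0238), which was 0.58 without the 2 farthest mice. Kap and Odc1 had r = 0.60 (permutation adjusted p = 0.0364), which was 0.39 without FLX replicate 3 and Ctrl replicate 6. By rho these last 3 pairs had 0.65, 0.62 and 0.57 (permutation adjusted p = 0.0617, 0.0688 and 0.0813). Ctrl replicate 6 was among the 2 farthest mice for each of the 5 pairs. With all 6 PBS mice, 10 pairs passed by r and 14 of the 21 had a positive r. Neither Cyp4a12a nor Gusb was part of a pair that passed over the 17 mice. Each value of a mouse comes from 1 library, so that errors of that library are shared by all 7 genes.

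Profiles over the 17 mice were also compared with the mean standardised profile of the 7 genes, on log2(FPKM + 0.1). Among 12092 other genes with a mean of at least 1 FPKM, the 5 nearest by root mean square difference were Cyp4b1 (0.328), Gm6300 (0.339), Degs2 (0.354), Slco3a1 (0.383) and Ldhd (0.396). Of the 7 genes themselves, Slco1a1 was 0.225 from their mean profile. The others were 0.505 (Kap) to 0.650 (Odc1) from it, farther than the 5 genes just named. Each of the 7 is part of the mean it is compared with. The profile also holds the group differences on which the 7 were chosen. Cyp4b1 averaged 1041 FPKM in Ctrl, 407 in PBS and 856 in FLX mice, and Ldhd averaged 193, 123 and 174 FPKM.

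The gene lists that follow were chosen with earlier results of these data known. Their counts and p-values are given as a description, and nothing about the 7 genes is read from them. The first list held other genes known to be higher in male mouse kidney. Of 15 such genes outside the 7, 5 were called in PBS versus Ctrl, all of them lower (median log2 fold change -0.39), where 3.81% of all genes were called in either direction. Acsm3, a medium-chain acyl-CoA synthetase, fell from 147 to 35.9 FPKM (log2 fold change -2.02 ± 0.24 SE, edgeR quasi-likelihood adjusted p = 0.000155). Cyp4b1, a P450 of fatty acid metabolism, fell by 1.35 on the log2 scale (adjusted p = 0.000433), Hsd11b1, which regenerates active glucocorticoid, by 0.88 (adjusted p = 0.0013), and Slc22a12, the urate transporter of the brush border, by 0.63 (adjusted p = 0.00214, all from edgeR's quasi-likelihood test). Ace, the angiotensin-converting enzyme, fell by 0.67 (edgeR adjusted p = 0.0226, 0.00104 to 0.096 over the alternatives), and lost the call with all 6 PBS mice (0.096) and without Ctrl replicate 5 (0.0552). Akr1c21, a hydroxysteroid dehydrogenase, and Cyp2j5 were among the most abundant of the 15 and had log2 fold changes of -0.07 and -0.12 (edgeR adjusted p = 0.743 and 0.509). Nudt19 was the exception in sign, at 0.36 (edgeR adjusted p = 0.352).

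In FLX versus PBS, 3 of the 15 were called, all of them higher (median 0.39), where 0.726% of all genes were called in either direction. Acsm3 rose by 1.58 (edgeR quasi-likelihood adjusted p = 0.00395), Cyp4b1 by 0.99 (adjusted p = 0.0157) and Hsd11b1 by 0.60 (adjusted p = 0.0449). Cyp4b1 missed the threshold without PBS replicate 4 (edgeR adjusted p = 0.053, 6.69e-06 to 0.137 over the alternatives). Hsd11b1 kept its call when Ctrl replicate 3, Ctrl replicate 6, FLX replicate 4 or PBS replicate 3 was left out, and lost it without any 1 of the other 13 mice (edgeR adjusted p = 0.0551 to 0.110). With all 6 PBS mice Hsd11b1 was not called (0.0874, with 0.00198 to 0.704 over the alternatives), while Slc22a12 was (edgeR adjusted p = 0.0422, against 0.0578 over 17 mice). In FLX versus Ctrl, edgeR called 0 of the 15, with 3 lower at an unadjusted p under 0.05, and limma and DESeq2 also called 0.

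The counterpart was a set of 6 genes known to be higher in female mouse kidney. Of these, 4 were called higher in PBS versus Ctrl, beside 2.14% of all genes, and their median log2 fold change was 1.55. Slc7a12, an amino acid transporter, averaged 1.96 FPKM in Ctrl mice and rose by 3.49 ± 0.27 (SE) on the log2 scale (edgeR quasi-likelihood adjusted p = 1.53e-06), although PBS replicate 6 had 0.708 FPKM. Arg2, the mitochondrial arginase, rose by 1.67 (edgeR adjusted p = 0.00306), Prlr, the prolactin receptor, by 1.60 (adjusted p = 0.00198) and Cyp4a14, a P450 also induced through PPAR-alpha, by 1.51 (adjusted p = 0.0328). Cyp4a14 lost the call without any 1 of Ctrl replicates 2, 4 and 5 and PBS replicates 1, 4 and 5 (edgeR adjusted p = 0.0627 to 0.0874). Slc22a7, an organic anion transporter, averaged 48.5 FPKM in PBS and 105 in Ctrl mice and was not called by edgeR (log2 fold change -1.12 ± 0.33, edgeR adjusted p = 0.0691), nor was Abcc3 (1.01 ± 0.48, adjusted p = 0.275). DESeq2 and limma did call Slc22a7 lower (adjusted p = 0.0325 and 0.0458, with 0.0325 to 0.170 over the alternatives). In FLX versus PBS, where 0.42% of all genes were called lower, Slc7a12 fell by 1.37 (edgeR adjusted p = 0.0179) and Prlr by 1.28 (adjusted p = 0.0282), and none was called with all 6 PBS mice, where 4 had an unadjusted p under 0.05 and the adjusted p of Slc7a12 was 0.344 and that of Prlr 0.102. Slc7a12 lost this call without PBS replicate 4 (edgeR adjusted p = 0.0557, 1.53e-05 to 0.615 over the alternatives). Prlr lost it without any 1 of FLX replicates 2, 3, 5 and 6 and PBS replicates 1, 3 and 4 (edgeR adjusted p = 0.0509 to 0.0967, 0.00356 to 0.616 over the alternatives). Slc7a12 was also higher in FLX than in Ctrl mice, by 2.12 on the log2 scale (edgeR adjusted p = 0.000336).

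**Figure D4:**
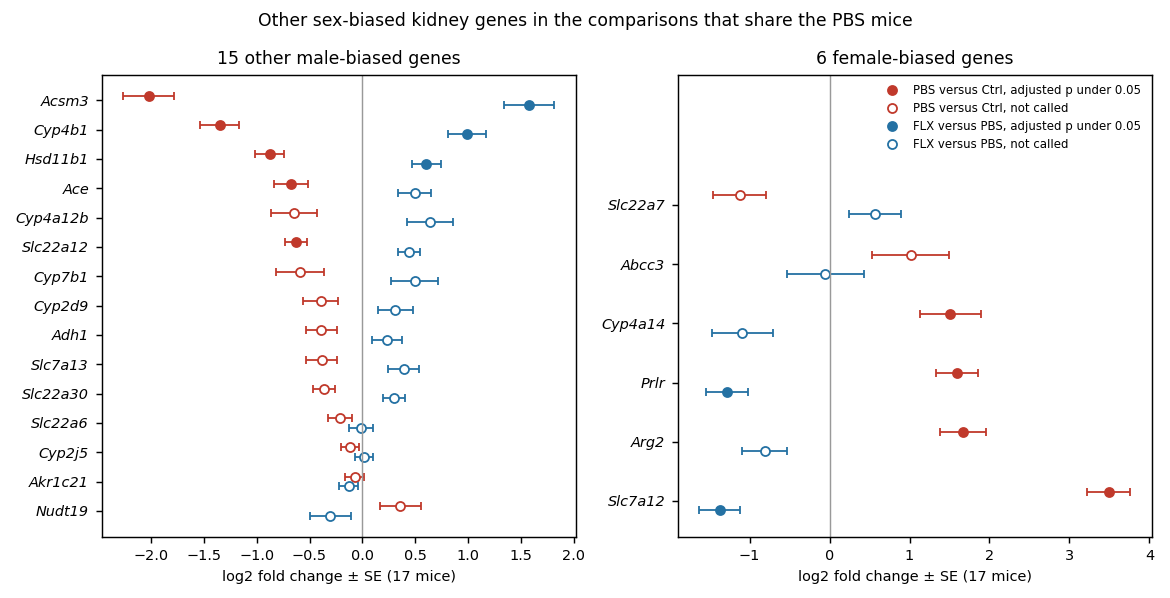
Log2 fold change ± SE over 17 mice for 15 male-biased genes outside the 7 (left) and 6 female-biased genes (right), with PBS versus Ctrl in red and FLX versus PBS in blue, and filled points for an edgeR adjusted p under 0.05. Of the 15, 14 are below 0 in red and 12 above 0 in blue, in comparisons that share the PBS mice.

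Among 12 genes of steroid receptor chaperones and coregulators, Fkbp5, a chaperone partner that both androgen and glucocorticoid induce in many cells, rose from 4.68 to 10.9 FPKM in PBS versus Ctrl (log2 fold change 1.23 ± 0.21 SE, edgeR adjusted p = 0.00237). Ncoa4, a coactivator that also serves in ferritin turnover, rose by 0.38 (edgeR adjusted p = 0.0188, over 0.05 without Ctrl replicate 2, at 0.0508, or PBS replicate 4, at 0.0617). The abundant chaperone genes Hsp90ab1 and Fkbp4 were not called in this comparison (log2 fold changes 0.28 and 0.06). In FLX versus PBS edgeR called none of the 12, and DESeq2 called Fkbp5 lower (-0.79, DESeq2 adjusted p = 0.00867). In FLX versus Ctrl all 12 were higher. There edgeR called Ncoa4 (0.32, edgeR adjusted p = 0.0388, 0.00598 to 0.523 over the alternatives), beside 3.67% of all genes. DESeq2 and limma called Ncoa4, Hsp90aa1 and Hsp90ab1 there.

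Enzymes that convert steroids included 12 tested genes, of which edgeR called 3 in PBS versus Ctrl, all of them lower (median -0.10), where 1.67% of all genes were called lower. Srd5a1 and Srd5a2, the 5-alpha reductases that make dihydrotestosterone from testosterone, fell by 0.42 (edgeR quasi-likelihood adjusted p = 0.0077) and 1.08 (adjusted p = 0.028). Hsd17b2, which inactivates testosterone by oxidation, fell by 0.82 (edgeR adjusted p = 0.0417). The call of Srd5a2 ended without any 1 of Ctrl replicates 2 and 5 and PBS replicates 1, 3, 4 and 5 (edgeR adjusted p = 0.0517 to 0.0678), and that of Hsd17b2 without any 1 of 9 mice, namely Ctrl replicates 1, 2, 4 and 5, FLX replicates 1 and 3 and PBS replicates 3, 4 and 5 (0.0532 to 0.117). The most abundant members, Hsd3b4 and Hsd17b11, had log2 fold changes of 0.38 and -0.64 (edgeR adjusted p = 0.251 and 0.056). In FLX versus PBS none of the 12 was called by edgeR, DESeq2 or limma, with 4 at an unadjusted p under 0.05 in edgeR. Srd5a1 was the 1 called in FLX versus Ctrl, beside 3.67% of all genes, and fell by 0.30 (edgeR adjusted p = 0.0391, 0.00933 to 0.347 over the alternatives). That call ended with all 6 PBS mice, with limma, and without any 1 of Ctrl replicates 2, 4, 5 and 6 and FLX replicates 1, 2, 3, 5 and 6 (edgeR adjusted p = 0.0551 to 0.103 without 1 of these mice).

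Polyamine genes around Odc1 were read from a list of 15, all tested. Sat2, a relative of the polyamine acetyltransferase Sat1, was the 1 called by edgeR in PBS versus Ctrl, beside 3.81% of all genes, and fell by 0.62 (edgeR quasi-likelihood adjusted p = 0.00354), and none was called in FLX versus PBS (edgeR, DESeq2 and limma, with 4 at an unadjusted p under 0.05 in edgeR). The antizyme gene Oaz1, whose protein sends ornithine decarboxylase to degradation, averaged 155 FPKM in Ctrl and 143 in PBS mice. In FLX versus Ctrl, where 3.67% of all genes were called, edgeR called 3 of the 15. Sat2 fell by 0.52, Agmat, which splits agmatine into putrescine and urea, fell by 0.94, and Amd1, the decarboxylase that supplies aminopropyl groups, rose by 0.60 (edgeR adjusted p = 0.0126, 0.0152 and 0.00565).

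Relatives of Cyp4a12a, Cyp2j13 and Slco1a1 were also read, among them Cyp4a12b, Cyp2j5 and Cyp4a14, which are also in the sex-biased lists above. Of the 13 family genes tested, Cyp4a14 was the 1 called by edgeR in PBS versus Ctrl, beside 3.81% of all genes, while DESeq2 also called Cyp2j7 and Cyp4a12b lower. Cyp4a10 averaged 184 FPKM in PBS mice, with 0.20 ± 0.18 as the log2 difference from Ctrl (edgeR quasi-likelihood adjusted p = 0.60), and Cyp4a31 averaged 81.0, 88.4 and 81.3 FPKM. Cyp2j11 averaged 104, 101 and 106 FPKM, and Cyp2j9 averaged 4.06, 3.19 and 2.89 FPKM. Neither was called by edgeR in any comparison, and in FLX versus Ctrl edgeR called none of the 13, with 3 at an unadjusted p under 0.05. DESeq2 called 3 lower there, namely Cyp2j6, Cyp2j7 and Cyp2j9, and limma called Cyp2j7. For Cyp2j9 the log2 difference between FLX and Ctrl mice was -0.57 in both tools, with an adjusted p of 0.0852 in edgeR and 0.0279 in DESeq2 (0.0279 to 0.478 over the alternatives). PBS replicate 6 had 1357 FPKM of Cyp4a14 and 841 of Cyp4a10, against PBS means of 145 and 184 without it.

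Markers of other cell types and of tubule state were summed in the same libraries. Of the 18 proximal tubule genes, Miox and Pck1 rose in PBS versus Ctrl (log2 fold changes 0.46 and 0.80, edgeR quasi-likelihood adjusted p = 0.0375 and 0.00929) and were the 2 of the list that edgeR called in that comparison, beside 2.14% of all genes called higher, and Pck1 fell by 0.83 in FLX versus PBS (adjusted p = 0.0209, over 0.05 without FLX replicate 1, FLX replicate 3 or PBS replicate 4, at 0.0532 to 0.0675). Median log2 fold changes over the 18 were 0.14 in PBS versus Ctrl and -0.17 in FLX versus PBS. The summed FPKM of the 18 genes, which include Miox and Pck1, was within or above the Ctrl range in PBS replicates 1 to 5. Of the 7 genes, Kap, Slco1a1, Cyp4a12a and Gusb were below the Ctrl range in all of these mice. Odc1 and Cyp2j13 were inside the Ctrl range in all of them, and Cyp2e1 in some. Miox lost its call with all 6 PBS mice (edgeR adjusted p = 0.575, 0.00635 to 0.575 over the alternatives) and without any 1 of Ctrl replicates 1, 2 and 6 and PBS replicates 1 to 4. Summed FPKM of 9 neutrophil genes was 1.44 to 3.35 in Ctrl, 7.18 to 26.2 in PBS replicates 1 to 5 and 0.453 to 5.74 in FLX mice. Tubule injury genes summed to 345 to 594 FPKM in Ctrl, 635 to 1085 in PBS replicates 1 to 5 and 455 to 782 in FLX mice. Summed values of 8 fat genes spread widely, from 4.41 to 219 FPKM in Ctrl, 28.9 to 1295 in PBS replicates 1 to 5 and 30.1 to 1327 in FLX mice. Whether any of these played a part in the levels of the 7 genes was not tested. Liver genes summed to 76.0 to 126 FPKM in Ctrl, 66.3 to 129 in PBS replicates 1 to 5 and 47.3 to 79.4 in FLX mice, and 8 of the 15 averaged under 1 FPKM. Adrenal genes summed to at most 6.70 FPKM in the 17 mice, and 7 of the 8 averaged under 1 FPKM.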

How the data were processed

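Poly(A) RNA of right kidneys from 18 mice was sequenced as read pairs of 150 bases. For 32675 Ensembl genes, the authors deposited estimated counts and FPKM values of each mouse. The study's methods name fastp, HISAT-3N, StringTie and GRCm38, while the submitters' processing notes name cutadapt 1.9, HISAT2 2.0.4, UMI-tools and StringTie 1.3.4d, and these sources differ. Which tool made the estimated counts was not given in the sources used here. A median of 720 genes per mouse had a count of 4, against 484.5 with 3 and 268 with 5, so counts are not single fragments and no counting interval is given. Annotation columns were not used.

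The 7 genes, the other gene lists and the tests were chosen with earlier results of these data known. Estimated counts, which were whole numbers as deposited, were fitted with edgeR 4.0.16 (R 4.3.3; TMM scaling, filterByExpr, two-sided quasi-likelihood test, Benjamini-Hochberg over 20251 genes, threshold 0.05) in 1 model over 3 groups and 17 mice, without PBS replicate 6. The fit was tested on simulated data. Nothing in the labels says how mice shared cages or days, so p-values measure the spread between these mice. Levels are FPKM, which are scaled to all transcripts of a library, whereas fitted fold changes rest on counts after TMM scaling.

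Named were the 7 genes, family relatives over 1 FPKM, the 5 genes with the nearest profile, and, from each list, genes called in any comparison and the 2 most abundant, of which those bearing on the 7 genes are given. A gene that the rule names is not reported here. Alternatives were DESeq2 1.42.0, limma 3.58.1 on log2(FPKM + 0.1, 1 or 0.01), upper-quartile scaling, scaling without the 7 genes, no filter, only the 2 groups compared, all 6 PBS mice, FLX replicates 1 and 2 only, the replicate number as a block, and each mouse left out in turn. Promoters came from RefSeq (GRCm38.p6) and transcripts from GENCODE M21.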

Additional observations from a re-analysis of the deposited data

Results flagged for a closer look

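For 3 of the 7 genes, PBS replicate 6 lay far from the other PBS mice. Its Kap level was 4720 FPKM, against 17873 to 21183 in the other 5. Its Slco1a1 level was 0.427 FPKM, against 2.82 to 6.35. Its Cyp2j13 level was 5.24 FPKM, against 22.4 to 33.9. The summed neutrophil and tubule injury genes of this mouse also lay above those of the other PBS mice, as given above, and their part in these low levels was not tested. Gusb in Ctrl replicate 4, at 7.84 FPKM, lay above the other Ctrl mice, which had 6.59 to 7.00 FPKM. The other 3 members of the 7 held no such value in any group. In all, 21 sets of 6 mice were examined by the gap of the highest or lowest mouse, and chance alone marks about 1 set in 20.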

How the results depend on the processing

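The 7 genes kept the sign of their log2 fold changes in PBS versus Ctrl and in FLX versus PBS under all 28 alternatives. These alternatives are drawn from the same 18 mice. In FLX versus PBS, Odc1 came to 0.03 without PBS replicate 5 and Cyp2e1 to 0.08 without PBS replicate 3. The standard errors of these 2 genes were 0.22 and 0.15 in the main fit. In FLX versus Ctrl the sign turned for Cyp4a12a without Ctrl replicate 3 (0.04), for Cyp2j13 without Ctrl replicate 6 (-0.03) and for Gusb with limma on log2(FPKM + 0.01) (0.02). Their median stayed between -0.66 and -0.45 in PBS versus Ctrl, 0.26 and 0.42 in FLX versus PBS and -0.42 and -0.16 in FLX versus Ctrl when mice were left out in turn. Counts over all genes moved more, and for the settings that follow the cause was not tested. In PBS versus Ctrl, 772 genes were called, against 1413 with DESeq2, 496 with only the 2 groups and 388 to 1662 without 1 mouse. The split of 433 higher and 339 lower became 314 and 449 with upper-quartile scaling. In FLX versus PBS, 147 genes became 498 with DESeq2, 255, 242 and 244 with limma (pseudocount 0.1, 1 and 0.01), 88 with no filter, 95 with only the 2 groups and 47 to 250 without 1 mouse. With limma (pseudocount 0.1) 192 were higher and 63 lower, against 62 and 85. In FLX versus Ctrl, 744 became 1615 with DESeq2, 1214, 1197 and 1165 with limma (0.1, 1 and 0.01), 354 with all 6 PBS mice, 378 with no filter and 271 to 3099 without 1 mouse. The split of 422 and 322 was 340 and 412 with upper-quartile scaling and 979 and 235 with limma (0.1). The highest of these counts came without Ctrl replicate 3. With FLX replicates 1 and 2 only, an arrangement with fewer mice, 0 genes were called in FLX versus PBS (edgeR, 1323 at an unadjusted p under 0.05) and 4 in FLX versus Ctrl, and so 0 of the male-biased and 0 of the female-biased genes in FLX versus PBS. Without 1 mouse, 4 to 7 male-biased genes were called lower in PBS versus Ctrl and 1 to 4 higher in FLX versus PBS, and 3 to 4 female-biased genes were called higher and 0 to 2 lower. With all 6 PBS mice, 0 female-biased genes were called lower in FLX versus PBS, and 10 pairs of the 7 genes passed within groups, against 5.

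Replicate numbers are shared by the groups. Same-numbered mice had correlations of -0.19 to 0.20 (median -0.03), against -0.19 to 0.15 (median -0.0003) for other numbers, and 4 mice correlated best with their own number. These values gave no clear sign of pairing but cannot exclude it. With the replicate number as a block, 419 genes were called in PBS versus Ctrl, 67 in FLX versus PBS and 258 in FLX versus Ctrl. The totals of FLX replicates 3 to 6 were lower, which limits the precision of genes with few counts in those mice. Every library with a lower total was from the FLX group, so library total and fluoxetine cannot be fully told apart. With FLX replicates 1 and 2 only, FLX versus PBS was 1.66 for Slco1a1, 1.62 for Cyp4a12a and 0.14 for Gusb. In the main fit these values were 2.03, 1.86 and 0.24. Cyp2j13 moved the other way, from 0.09 to 0.26 in FLX versus Ctrl. The part played by library total was not tested.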

Other observations

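PBS replicate 6 differed from the other PBS mice in opposite directions within the sex-biased groups. Akr1c21 was at 91.7 FPKM in this mouse, against a mean of 862 over PBS replicates 1 to 5, and Cyp4a14, a female-biased gene, at 1357 against 145. Slc22a7 was at 3.46 FPKM against 48.5, and Arg2 at 21.7 against 9.03. Outside these groups, Fga, a fibrinogen chain gene, was at 266 FPKM against 13.5, and Akr1b7, an aldo-keto reductase gene used here as an adrenal marker, at 50.3 against 2.45.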
